A study of Drosophila melanogaster with 29 samples.

Results

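D7 and PEN2 neurons are 2 cell types of the fly's compass network, and their sorted bulk RNA sequencing libraries were compared directly with each other. The comparison used 6 of the 14 bulk libraries and of the 29 samples in the series. The D7 group held 4 libraries, 2 from driver line SS02238 and 2 from SS30295, and the PEN2 group held 2 libraries, both from line SS02232. Membership followed the labelled cell type and driver line, and no measured value was used. All flies were Drosophila melanogaster females aged 3 to 5 days that carried the nuclear red reporter nlstdTomato under the driver, and the labelled cells were sorted by FACS from dissociated brains. The D7 libraries came from 885, 754, 1250 and 1270 cells, and the PEN2 libraries from 993 and 1095 cells. A group is thus the set of cells that a driver labels, and PEN2 rests on 1 driver line.

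The compass network is a ring-like circuit of the central complex that keeps track of the direction a fly faces. D7 neurons lie within the protocerebral bridge and connect its columns with each other. PEN2 neurons run from the bridge to the ellipsoid body and the noduli and belong to the pathway that moves the heading signal when the fly turns. EPG and PEG neurons are the other columnar types among the bulk libraries, and WB denotes RNA of the whole brain. The question was which transmitter, receptor, signalling, adhesion and regulatory genes differed in level between D7 and PEN2.

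Levels are the deposited FPKM, that is, fragments relative to transcript length and sequencing output. Differences are on the scale log2(scaled FPKM + 1), D7 minus PEN2, with ± SE, so a positive value means a higher level in D7. Tests are limma tests over all genes measured at 1 FPKM or more in at least 2 of the 6 libraries, and a gene is called at an adjusted p (Benjamini-Hochberg) under 0.05. Read depth is unknown for these libraries. The labels do not say whether the replicates were dissected separately, and the p-values therefore reflect the spread between these libraries alone. In sorted bulk material, fewer cells with a transcript and less of it per cell cannot be told apart.

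Between 4347 and 6106 genes reached 1 FPKM in the D7 libraries, and 4726 and 4103 in the PEN2 libraries. Genes of rRNA took 71.9% to 79.0% of the FPKM in D7 and 73.8% and 75.8% in PEN2. Across the tested genes, log2 values correlated at 0.67 to 0.773 between D7 libraries, at 0.665 between the PEN2 libraries and at 0.538 to 0.62 between the types. The header of the bulk table gives D7 SS02238 replicate 2 the line number SS00238, which the labels use for another cell type, R4d; the sample's own labels give D7 and SS02238 and were followed. In that library the D7 genes VGlut, Proc and Lmx1a stood at 311.0, 182.7 and 114.4 FPKM, within or near the range of the other D7 libraries. Its correlations with the other D7 libraries, at 0.67 to 0.677, were the lowest among D7 libraries. The driver part Gal4-DBD stood at 0.00 FPKM in it, against 12.46 to 22.05 FPKM in the other D7 libraries. The line of this library was not tested. A title likewise writes SS30195 for D7 SS30295 replicate 2. All 8 pan-neuronal markers were at 1 FPKM or more in every library, and they summed to 903.5 to 1612.1 FPKM in D7 and to 1718.5 and 2315.1 FPKM in PEN2. Of the 8 markers, 7 had a negative difference, against 2929 of all 6461 tested genes, and the median was -0.90 log2. Both PEN2 libraries lay above all D7 libraries for 5 of the 8, against 10.2% of all tested genes. Of the 8 markers, 2 were called, against 2.62% of all tested genes. Called among them were Appl (-2.04 ± 0.39 log2, adjusted p = 0.0195; 0.061, 0.0558 and 0.136 without D7 SS02238 replicate 1, D7 SS30295 replicate 1 and PEN2 replicate 2) and fne, higher in PEN2. Of 16 glial markers, 1 to 5 reached 1 FPKM in a D7 library and 7 and 3 in the PEN2 libraries, with summed levels of 3.40 to 25.6 FPKM in D7 and 41.7 and 22.6 FPKM in PEN2. The defining glial genes repo and Eaat1 stood at 0.04 FPKM or less in all 6 libraries, and Gs2 at 0.92 FPKM or less. The glial gene moody stood at 0.24 to 1.46 FPKM in D7 and at 6.58 and 19 FPKM in PEN2 (-2.86 ± 0.92 log2, adjusted p = 0.139). The part of the pan-neuronal and glial levels in the differences below was not tested.

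Of 17612 genes, 6461 were tested and 169 were called, 2.62% of those tested. Of the called genes, 73 were higher in D7 (1.13%) and 96 were higher in PEN2 (1.49%). At an unadjusted p under 0.05 the number was 997. All 4 D7 libraries lay above both PEN2 libraries for 952 genes (14.7%), and both PEN2 libraries lay above all 4 D7 libraries for 657 genes (10.2%). The median difference over all tested genes was 0.16 log2. The median SE was 0.87 log2 and the smallest difference called was 1.40 log2. Among genes with a mean of 100 FPKM or more the median SE was 0.37. Both PEN2 libraries were under 1 FPKM for 26 of the 73 D7 genes, and all D7 libraries were under 1 FPKM for 29 of the 96 PEN2 genes. The filter also admits genes measured in 1 type only, and the share of such genes among all tested genes was not counted.

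The count of calls rested on the small number of libraries. Without PEN2 replicate 2, 16 genes were called, 12 of them among the 169, and without PEN2 replicate 1, 96 genes. Leaving out D7 SS02238 replicate 1, D7 SS30295 replicate 1 or D7 SS30295 replicate 2 gave 71, 70 and 76 calls, and leaving out D7 SS02238 replicate 2 gave 124. With each library left out in turn, 10 genes kept their call every time. Higher in D7 among them were Proc, Lmx1a, VGlut, bnb, CG9016, CG46448, bib, RpL3 and CG14322, and heph was higher in PEN2. No called gene changed direction under any alternative tried. No gene was called between the 2 D7 lines (limma; 435 genes at an unadjusted p under 0.05). D7 SS30295 replicates 1 and 2 and PEN2 replicate 1 share a number prefix in their titles, whose meaning is not stated. Within those 3 libraries no gene was called (limma; 883 at an unadjusted p under 0.05).

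**Figure D1:**
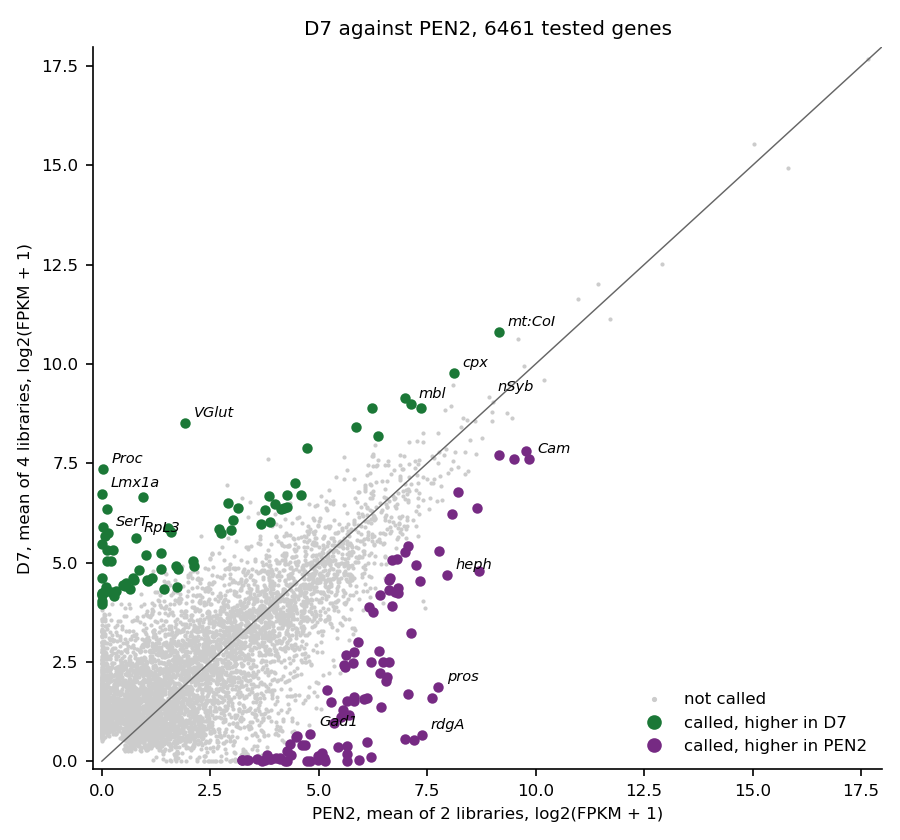
Mean log2(FPKM + 1) of the 6461 tested genes in the 2 PEN2 libraries (horizontal axis) and the 4 D7 libraries (vertical axis), with the 73 genes called higher in D7 in green, the 96 called higher in PEN2 in purple and the rest in grey. Called genes lie far from the diagonal, several of them close to 0 in one type.

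Among the fast transmitter genes, VGlut was called higher in D7 and VAChT higher in PEN2. VGlut, the vesicular glutamate transporter, stood at 402, 311, 378 and 371 FPKM in the D7 libraries and at 0.68 and 7.57 FPKM in PEN2. The difference was 6.44 ± 0.59 log2 (adjusted p = 0.000275), and it was called with each library left out. VAChT, which loads acetylcholine into vesicles, stood at 6.69, 9.93, 0.16 and 1.84 FPKM in D7 and at 112.0 and 77.0 FPKM in PEN2. The D7 libraries all lay below the PEN2 libraries (-4.62 ± 0.90 log2, adjusted p = 0.0208), but the adjusted p was 0.0592 without D7 SS30295 replicate 2, 0.165 without PEN2 replicate 1 and 0.214 without PEN2 replicate 2. The choline acetyltransferase ChAT, which shares its locus with VAChT, was at 5.52, 0.31, 0.02 and 0.26 FPKM in D7 and 12.1 and 21.5 FPKM in PEN2, and did not pass (-3.35 ± 1.02 log2, adjusted p = 0.112). The choline transporter ChT was likewise higher in both PEN2 libraries than in all D7 libraries and did not pass (-2.88 ± 0.92 log2, adjusted p = 0.132). Of the 3 genes for acetylcholine synthesis and release, 1 was called, against 2.62% of all genes. All 3 were higher in both PEN2 libraries, against 10.2% of all genes, and their median was -3.35 log2.

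Genes for GABA did not separate the types in a stable way. Gad1, which makes GABA, was at 0.05, 5.99, 0.01 and 0.00 FPKM in D7 and at 210.8 and 2.83 FPKM in PEN2. The high value was in PEN2 replicate 1 only, the groups overlapped, and the difference did not pass (-4.10 ± 1.45 log2, adjusted p = 0.18). The vesicular GABA transporter VGAT stood at 5.28 to 14.3 FPKM in D7 and at 20.9 and 7.69 FPKM in PEN2 (-0.48 ± 0.66 log2, adjusted p = 0.739).

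Of 13 genes for monoamine synthesis and transport, 5 were tested and 1 was called, against 2.62% of all genes. SerT, the plasma membrane serotonin transporter, stood at 31.1, 26.5, 92.7 and 101.6 FPKM in D7 and at 0.03 and 0.17 FPKM in PEN2. Each D7 library lay far above PEN2, and the SS30295 libraries lay above the SS02238 libraries (adjusted p = 0.699 between the lines). The difference was 5.55 ± 0.65 log2 (adjusted p = 0.00113), with an adjusted p of 0.0589 without PEN2 replicate 2. The serotonin-synthesis gene Trhn was listed at 0 in all 6 libraries, and the vesicular monoamine transporter Vmat reached at most 0.64 FPKM. Tbh, the enzyme that makes octopamine from tyramine, was at 0.00 to 0.06 FPKM in D7 and at 5.35 and 17.9 FPKM in PEN2 (-3.51 ± 0.85 log2, adjusted p = 0.0518).

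Neuropeptide genes differed in both directions. Of 50 precursor genes, 14 were tested, 2 were called higher in D7 and 2 higher in PEN2. The called share was 28.6%, against 2.62% of all genes, and the median over the 14 was -0.81 log2. Proc, which encodes proctolin, stood at 173.5, 182.7, 126.1 and 172.6 FPKM in D7 and at 0.02 and 0.03 FPKM in PEN2. The 4 D7 values lay close together, and the difference was the largest of all tested genes in that direction (7.26 ± 0.47 log2, adjusted p = 2.47e-05). Dh31, a diuretic hormone precursor, stood at 86.3, 101.6, 35.0 and 10.7 FPKM in D7 and was listed at 0 in both PEN2 libraries. The 2 SS02238 libraries lay above the 2 SS30295 libraries (adjusted p = 0.656 between the lines), and the contrast with PEN2 was 5.42 ± 0.92 log2 (adjusted p = 0.0121; 0.115 and 0.148 without PEN2 replicate 1 or 2).

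In the other direction, Dh44, the corticotropin-releasing factor-like diuretic hormone, stood at 0.00, 3.33, 0.00 and 0.03 FPKM in D7 and at 131.2 and 159.9 FPKM in PEN2 (-6.68 ± 0.88 log2, adjusted p = 0.00301; 0.0524 and 0.092 without PEN2 replicate 1 or 2). The precursor gene spab was at 0.58, 4.21, 1.17 and 5.08 FPKM in D7 and at 152.8 and 113.6 FPKM in PEN2 (-5.48 ± 0.73 log2, adjusted p = 0.00314; 0.059 and 0.08 without PEN2 replicate 1 or 2). Neither gene overlapped between the types. FMRFa, a gene for several FMRFamide peptides, was at 48.2 and 5.39 FPKM in PEN2 and at 0.00 to 4.77 FPKM in D7 and did not pass (-3.47 ± 1.10 log2, adjusted p = 0.131). Nplp1 was also higher in both PEN2 libraries, at 50.5 and 65.1 FPKM against 14.7 to 38.2 FPKM, and did not pass (-1.60 ± 0.50 log2, adjusted p = 0.121). AstC, the allatostatin C precursor, followed neither type: it stood at 114.4 and 98.9 FPKM in the SS02238 libraries, was listed at 0 in both SS30295 libraries, and stood at 28.5 and 0.00 FPKM in PEN2 (1.02 ± 2.05 log2, adjusted p = 0.826). FMRFa and AstC were chosen after their values were seen.

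**Figure D2:**
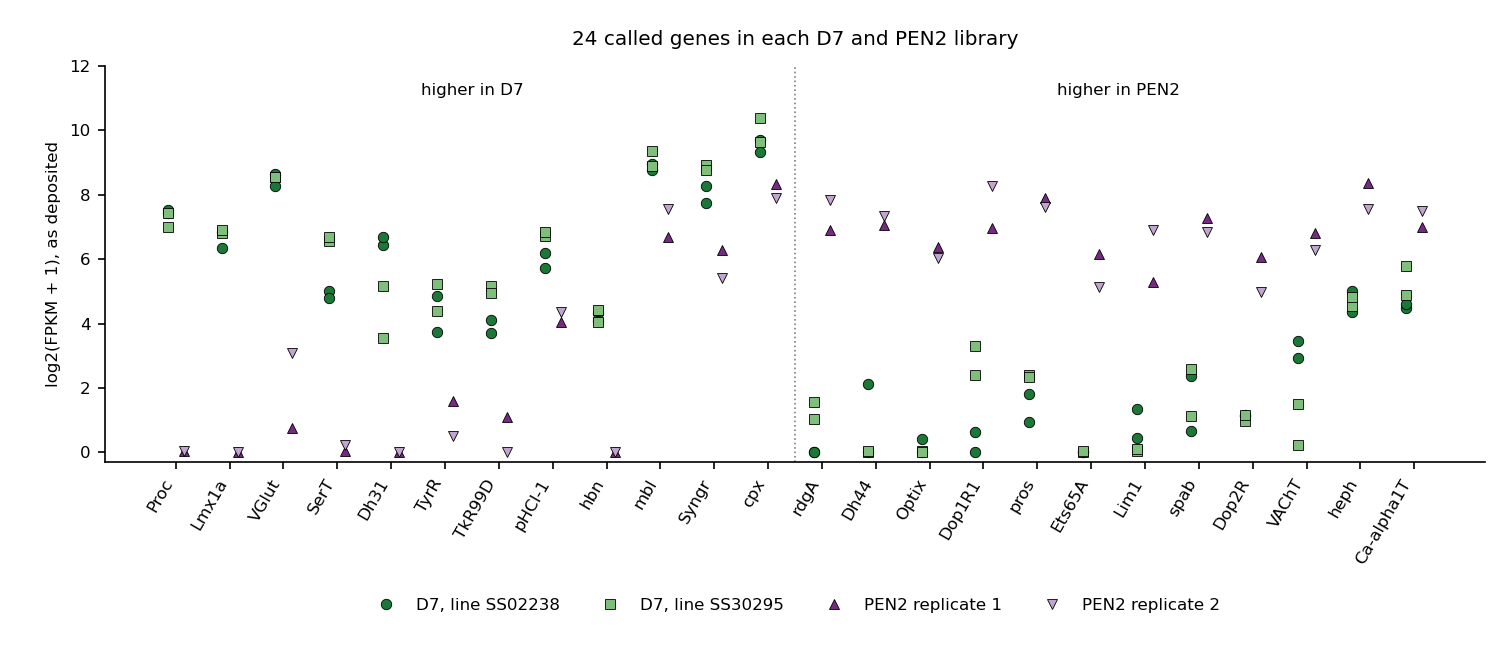
Deposited log2(FPKM + 1) of 24 called genes in every library, 12 higher in D7 and 12 higher in PEN2; circles are D7 line SS02238, squares D7 line SS30295, upward triangles PEN2 replicate 1 and downward triangles PEN2 replicate 2. The types do not overlap for any of these genes, and the D7 lines lie apart for SerT and Dh31.

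Of the 3 tested dopamine receptor genes, 2 were called, both higher in PEN2, against 2.62% of all genes. Dop1R1, a receptor that raises cyclic AMP, stood at 0.00, 0.56, 8.77 and 4.27 FPKM in D7 and at 122.9 and 308.3 FPKM in PEN2 (-6.18 ± 0.90 log2, adjusted p = 0.0056). Dop2R, a receptor that lowers cyclic AMP, stood at 1.20, 1.23, 0.95 and 1.25 FPKM in D7 and at 65.6 and 30.6 FPKM in PEN2 (-4.52 ± 0.76 log2, adjusted p = 0.0121). Both were lower in each D7 library, and both lost the call without PEN2 replicate 1 (adjusted p = 0.0542 and 0.0891) or replicate 2 (0.154 and 0.08). DopEcR, which binds dopamine and ecdysteroids, was at 20.1, 55.2, 17.8 and 2.26 FPKM in D7 and at 160.4 and 177.0 FPKM in PEN2 and did not pass (-3.48 ± 0.94 log2, adjusted p = 0.0757). The median of the 3 was -4.52 log2.

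Receptors for other modulators were called on the D7 side in single cases. TyrR, a tyramine receptor, stood at 27.8, 12.3, 19.8 and 36.6 FPKM in D7 and at 2.01 and 0.41 FPKM in PEN2 (3.44 ± 0.66 log2, adjusted p = 0.0189). TkR99D, a receptor for tachykinin peptides, stood at 16.4, 12, 34.9 and 30.1 FPKM in D7 and at 1.15 and 0.00 FPKM in PEN2 (3.90 ± 0.71 log2, adjusted p = 0.0161). Each was higher in all D7 libraries, and each lost the call without D7 SS30295 replicate 1 or 2 or without PEN2 replicate 2, TyrR also without D7 SS02238 replicate 1, with adjusted p-values of at most 0.0949. Of 8 octopamine and tyramine receptor genes, 1 was called, and of 21 tested neuropeptide receptor genes, 1 was called, against 2.62% of all genes. The 4 serotonin receptor genes tested had no call.

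Among receptors for fast transmitters, 1 of 3 tested ligand-gated chloride channel genes was called (33.3%), against 2.62% of all genes. The chloride channel gene pHCl-1, a member of the ligand-gated channel family, stood at 72.0, 52.1, 103.9 and 113.5 FPKM in D7 and at 15.4 and 19.7 FPKM in PEN2 (2.03 ± 0.42 log2, adjusted p = 0.0252; up to 0.11 with a library left out, and called only without D7 SS02238 replicate 2). The nicotinic acetylcholine receptor subunit nAChRalpha6 stood at 32.8, 24, 34.4 and 43.0 FPKM in D7 and at 91.7 and 133.5 FPKM in PEN2 (-1.86 ± 0.41 log2, adjusted p = 0.0346; up to 0.161 with a library left out, and called only without PEN2 replicate 1). It was the 1 called of 9 nicotinic subunits. None of 5 GABA receptor genes was called, with a median of -0.85 log2, and the GABA-gated channel gene Rdl overlapped at 40.4 to 92.7 FPKM in D7 and 161.2 and 80.7 FPKM in PEN2. None of 11 glutamate-gated cation channel and metabotropic glutamate receptor genes was called. Without overlap, 1 of these 11 was higher in D7 and 1 higher in PEN2, against 14.7% and 10.2% of all tested genes. Of the 5 GABA receptor genes, 1 was higher in PEN2 without overlap, against the same 10.2%.

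Of 14 voltage-gated sodium and calcium channel genes, 1 was called (7.14%), against 2.62% of all genes. This was the T-type calcium channel gene Ca-alpha1T. It stood at 21.5, 23.2, 28.8 and 53.9 FPKM in D7 and at 125.6 and 179.9 FPKM in PEN2 (-2.44 ± 0.45 log2, adjusted p = 0.0164; 0.0537 without D7 SS02238 replicate 1 and 0.147 without PEN2 replicate 2). No potassium channel gene of the 12 tested was called. Their median was -0.94 log2, with 11 negative values, and 4 genes were higher in both PEN2 libraries than in all D7 libraries, against 10.2% of all tested genes. Neither of the 2 innexin genes tested, which form gap junctions, was called.

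Of 18 SNARE and vesicle fusion genes, 3 were called (16.7%), against 2.62% of all genes. Without overlap, 4 were higher in D7 and 2 higher in PEN2, against 14.7% and 10.2% of all tested genes. Syngr, a synaptic vesicle membrane protein gene, stood at 305.1, 211.2, 481.4 and 432.4 FPKM in D7 and at 77.1 and 41.9 FPKM in PEN2 (2.42 ± 0.34 log2, adjusted p = 0.00506; 0.0701 without PEN2 replicate 2). The gene cpx, for complexin, which clamps vesicle fusion, stood at 839.2, 636.4, 795.2 and 1348.7 FPKM in D7 and at 323.3 and 237.2 FPKM in PEN2 (1.50 ± 0.29 log2, adjusted p = 0.0189). The plasma membrane SNARE gene Syx1A stood at 98.9, 21.7, 111.0 and 181.2 FPKM in D7 and at 432.4 and 372.2 FPKM in PEN2 (-2.43 ± 0.55 log2, adjusted p = 0.0398). For cpx 4 and for Syx1A 4 of the 6 fits with a library left out did not pass, with adjusted p-values of up to 0.116 and 0.277, both without PEN2 replicate 2. The vesicle SNARE gene nSyb overlapped, at 464.5 to 734.9 FPKM in D7 and 418.0 and 563.6 FPKM in PEN2.

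Among 19 active zone and synaptic scaffold genes, 1 was called (5.26%), against 2.62% of all genes. Of the 19, 15 had a negative and 4 a positive difference. Without overlap, 2 were higher in D7 and 9 higher in PEN2, against 14.7% and 10.2% of all tested genes. Nlg3, a neuroligin adhesion gene, stood at 7.19, 4.67, 0.67 and 0.12 FPKM in D7 and at 38 and 80.2 FPKM in PEN2 (-4.27 ± 0.94 log2, adjusted p = 0.0343; 0.07, 0.0805, 0.127 and 0.325 without D7 SS30295 replicate 1, D7 SS30295 replicate 2, PEN2 replicate 1 and PEN2 replicate 2). Prosap, the Shank family scaffold gene of the receiving side of synapses and in none of the lists, stood at 122.8, 127.9, 111.2 and 153.0 FPKM in D7 and at 22.4 and 19.3 FPKM in PEN2. Its difference was 2.43 ± 0.37 log2 (adjusted p = 0.00651; 0.0589 without PEN2 replicate 2). Prosap was chosen after its values were seen.

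Of 22 tested genes of phospholipase C and diacylglycerol signalling, 2 were called, both higher in PEN2, against 2.62% of all genes. The median of the 22 was -0.40 log2, with 9 positive values. The gene rdgA, for a diacylglycerol kinase best known from fly photoreceptors, stood at 0.00, 0.01, 1.06 and 1.95 FPKM in D7 and at 119.7 and 227.6 FPKM in PEN2. This was the most negative difference of all tested genes (-6.88 ± 0.78 log2, adjusted p = 0.00113; 0.067 without PEN2 replicate 2). Pkc53E, a calcium-dependent protein kinase C, stood at 2.40, 0.45, 0.61 and 6.62 FPKM in D7 and at 45.0 and 31.4 FPKM in PEN2 (-3.95 ± 0.83 log2, adjusted p = 0.0279; 0.0633, 0.0643, 0.149 and 0.202 without D7 SS02238 replicate 1, D7 SS30295 replicate 1, PEN2 replicate 1 and PEN2 replicate 2). The phospholipase C gene norpA was higher in both PEN2 libraries, at 83.5 and 101.4 FPKM against 22.5 to 47.5 FPKM, and did not pass (-1.71 ± 0.44 log2, adjusted p = 0.065). Photoreceptor markers were at most 5.88 FPKM in any of the 6 libraries, the highest being chp in D7 SS02238 replicate 1.

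Of 30 tested genes of cyclic AMP signalling, 2 were called, against 2.62% of all genes, and the median was -0.51 log2. Pde1c, a phosphodiesterase of the calmodulin-dependent family, stood at 1.79, 5.33, 4.11 and 10.0 FPKM in D7 and at 91.8 and 57.4 FPKM in PEN2 (-3.84 ± 0.66 log2, adjusted p = 0.0121; 0.0997 and 0.109 without PEN2 replicate 1 or 2). The G protein subunit gene Ggamma30A stood at 443.0, 133.5, 234.9 and 175.3 FPKM in D7 and at 647.2 and 1187.3 FPKM in PEN2 (-2.12 ± 0.46 log2, adjusted p = 0.032), and was called without D7 SS02238 replicate 1 but in no other fit with a library left out (up to 0.323, without PEN2 replicate 2). Outside the lists, Cam, the calmodulin gene, stood at 193.6, 130.3, 228.2 and 243.7 FPKM in D7 and at 762.2 and 1117.8 FPKM in PEN2 (-2.39 ± 0.33 log2, adjusted p = 0.00372; 0.0589 without PEN2 replicate 2). CanA-14F, a catalytic subunit of calcineurin, stood at 15.6, 9.05, 19.1 and 32.5 FPKM in D7 and at 127.5 and 55.2 FPKM in PEN2 (-2.36 ± 0.50 log2, adjusted p = 0.0293), and was called in none of the fits with a library left out (adjusted p of 0.0531 to 0.145). Cam and CanA-14F were chosen after their values were seen.

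Homeobox genes held a larger share of calls than all tested genes, with 8 of 25 tested members called against 2.62%, 3 higher in D7 and 5 higher in PEN2. Lmx1a, a LIM homeobox gene, stood at 81.0, 114.4, 111.8 and 119.9 FPKM in D7 and at 0.00 and 0.01 FPKM in PEN2 (6.68 ± 0.50 log2, adjusted p = 6.34e-05). The paired-like gene hbn stood at 19.2, 15.8, 15.6 and 20.6 FPKM in D7 and was listed at 0 in both PEN2 libraries (4.18 ± 0.71 log2, adjusted p = 0.0121). CG4328 stood at 23.4, 6.52, 22.7 and 25.4 FPKM in D7 and was also listed at 0 in PEN2 (4.15 ± 0.76 log2, adjusted p = 0.0163). The call of Lmx1a held with each library left out, whereas hbn lost it in 3 such fits (up to 0.0589, without PEN2 replicate 2) and CG4328 in 5 (up to 0.085, without D7 SS30295 replicate 2).

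On the PEN2 side, the sine oculis family gene Optix stood at 0.33, 0.00, 0.02 and 0.00 FPKM in D7 and at 81.5 and 64.6 FPKM in PEN2 (-6.19 ± 0.83 log2, adjusted p = 0.00314). The gene pros, for the Prospero protein, stood at 0.92, 2.48, 4.27 and 4.07 FPKM in D7 and at 235.5 and 196.0 FPKM in PEN2 (-6.01 ± 0.61 log2, adjusted p = 0.000555). Lim1, another LIM homeobox gene, stood at 0.36, 1.55, 0.02 and 0.07 FPKM in D7 and at 38.1 and 120.0 FPKM in PEN2 (-5.68 ± 0.91 log2, adjusted p = 0.00948). All 3 were low in each D7 library and lost the call only without PEN2 replicate 2, at adjusted p-values of 0.0589, 0.0589 and 0.117. The genes ct and NK7.1 stood at 0.30 to 1.79 and 0.00 to 1.39 FPKM in D7, and at 20.6 and 75.5 FPKM (ct) and 32.9 and 16.9 FPKM (NK7.1) in PEN2. Their differences were -4.48 ± 0.91 and -4.33 ± 0.90 log2 (adjusted p = 0.0242 and 0.0259), and both were called without D7 SS02238 replicate 2 but in no other such fit, with adjusted p-values of up to 0.23 for ct and 0.092 for NK7.1 without PEN2 replicate 2. The genes hbn, CG4328, ct and NK7.1 are given to complete the 8 called genes, after their values were seen.

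Among 65 other transcription factor genes, 4 were called, all higher in PEN2, against 2.62% of all genes. Ets65A, an ETS family gene, was at 0.02 FPKM or less in D7 and at 71.2 and 34.3 FPKM in PEN2 (-5.75 ± 0.86 log2, adjusted p = 0.00631; 0.0589 without PEN2 replicate 2). The ETS repressor gene aop stood at 11.7, 0.73, 1.65 and 16.4 FPKM in D7 and at 89.5 and 86.0 FPKM in PEN2 (-4.14 ± 0.85 log2, adjusted p = 0.0252; 0.0584, 0.159 and 0.245 without D7 SS30295 replicate 1, PEN2 replicate 1 and PEN2 replicate 2). The Runt family gene run was listed at 0 in all D7 libraries and stood at 9.66 and 31.8 FPKM in PEN2 (-4.32 ± 0.90 log2, adjusted p = 0.0267), and was called only without PEN2 replicate 1 of the fits with a library left out (up to 0.0949, without D7 SS30295 replicate 2). Eip75B, an ecdysone-induced nuclear receptor gene, stood at 21.5 to 53.7 FPKM in D7 and at 130.2 and 120.3 FPKM in PEN2 (-1.85 ± 0.40 log2, adjusted p = 0.0321), and was called in none of the fits with a library left out (up to 0.154). None of 9 activity-regulated and none of 16 circadian clock genes tested was called.

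RNA-binding and splicing regulators were called in 7 of 46 cases, 2 higher in D7 and 5 higher in PEN2, against 2.62% of all genes, with a median of -0.81 log2 and 33 negative values. The gene heph, for the polypyrimidine tract-binding protein, stood at 31.1, 19.6, 22.6 and 27.6 FPKM in D7 and at 329.2 and 187.0 FPKM in PEN2 (-3.41 ± 0.39 log2, adjusted p = 0.00113), and was called with each library left out. Rbfox1 stood at 11.6, 8.59, 22.2 and 16.9 FPKM in D7 and at 115.6 and 89.3 FPKM in PEN2 (-2.92 ± 0.47 log2, adjusted p = 0.00976; 0.0561 and 0.0777 without PEN2 replicate 1 or 2). CG42458 was listed at 0 in all D7 libraries and stood at 24.9 and 47.6 FPKM in PEN2 (-5.24 ± 0.89 log2, adjusted p = 0.0121; 0.0589 without PEN2 replicate 2). The translational repressor gene pum and the ELAV family gene fne, with PEN2 levels of 88.8 and 107.7 FPKM and of 166.2 and 105.9 FPKM, were called at adjusted p = 0.0219 and 0.0423, and 5 and all 6 of the fits with a library left out did not pass (up to 0.141 and 0.147, without PEN2 replicate 2).

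On the D7 side, mbl, the muscleblind splicing regulator, stood at 498.7, 437.1, 470.3 and 654.9 FPKM in D7 and at 101.3 and 187.0 FPKM in PEN2 (1.74 ± 0.36 log2, adjusted p = 0.0259), and was called without PEN2 replicate 2 but in no other such fit (up to 0.127, without PEN2 replicate 1; 0.135 with all 12 sorted libraries). Rsf1 stood at 43.3 to 87.5 FPKM in D7 and at 8.64 and 16 FPKM in PEN2 (2.15 ± 0.50 log2, adjusted p = 0.0436), and was called in none of them (up to 0.198, without PEN2 replicate 1).

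The Beat and Side families are receptors and ligands that pair neurons and their targets, and of 21 tested members 2 were called, both higher in PEN2, against 2.62% of all genes, with a median of -1.64 log2. For 13 of the 21, both PEN2 libraries lay above all D7 libraries, against 10.2% of all tested genes. The gene beat-IIb stood at 0.00, 0.00, 0.44 and 0.02 FPKM in D7 and at 77.5 and 11.6 FPKM in PEN2 (-4.93 ± 0.96 log2, adjusted p = 0.0208). Its neighbour beat-IIa stood at 1.31, 0.11, 12.1 and 0.09 FPKM in D7 and at 48.7 and 43.4 FPKM in PEN2 (-4.39 ± 1.02 log2, adjusted p = 0.0431). Of the fits with a library left out, beat-IIb was called only without D7 SS02238 replicate 2 and beat-IIa only without D7 SS30295 replicate 1, with adjusted p-values of up to 0.0615 and 0.284 in the others.

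The Dpr and DIP families, immunoglobulin proteins that bind each other, had 3 of 26 tested members called, against 2.62% of all genes, 1 higher in D7 and 2 higher in PEN2. The types did not overlap for 12 of the 26, with 4 members higher in D7 and 8 higher in PEN2, against 14.7% and 10.2% of all genes. DIP-kappa stood at 30.1, 28.5, 34.3 and 25.2 FPKM in D7 and at 4.58 and 2.40 FPKM in PEN2 (2.69 ± 0.55 log2, adjusted p = 0.0242). The genes dpr6 and dpr8 were higher in PEN2, at 24.9 and 28.5 FPKM against 0.00 to 2.99 FPKM (dpr6, -4.26 ± 0.91 log2, adjusted p = 0.0306) and at 70.8 and 176.3 FPKM against 10.2 to 30.0 FPKM (dpr8, -2.73 ± 0.55 log2, adjusted p = 0.0242). DIP-kappa was called in none of the fits with a library left out and the other 2 in 1 each, with adjusted p-values of up to 0.109, 0.171 and 0.214, all without PEN2 replicate 2.

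Of 59 genes for axon guidance and other surface proteins, 3 were called, all higher in PEN2, against 2.62% of all genes. Without overlap, 5 were higher in D7 and 18 higher in PEN2, against 14.7% and 10.2% of all tested genes. The adhesion gene ed, for Echinoid, was at 0.17 FPKM or less in D7 and at 34.1 and 34.0 FPKM in PEN2 (-5.15 ± 0.86 log2, adjusted p = 0.0121; 0.0589 without PEN2 replicate 2). Drl-2, of the Derailed family of Wnt receptors, stood at 9.82, 15.1, 26.0 and 37.7 FPKM in D7 and at 95.3 and 132.6 FPKM in PEN2 (-2.60 ± 0.53 log2, adjusted p = 0.0252), and was called only without D7 SS30295 replicate 2 of the fits with a library left out (up to 0.223, without PEN2 replicate 2). Lac, for Lachesin, was at 0.24 FPKM or less in D7 and at 36.3 and 6.03 FPKM in PEN2 (-4.03 ± 0.91 log2, adjusted p = 0.0391), and was called in none of the fits with a library left out (up to 0.116). The secreted ligand genes Wnt4 and jeb, chosen after their values were seen, were higher in PEN2 as well. Wnt4 was at 0.11 FPKM or less in D7 and at 30.9 and 30.4 FPKM in PEN2 (-5.05 ± 0.86 log2, adjusted p = 0.0121; 0.0589 without PEN2 replicate 2). The Alk receptor ligand gene jeb stood at 31.3, 20.7, 22.9 and 16.3 FPKM in D7 and at 138.4 and 184.3 FPKM in PEN2 (-2.93 ± 0.46 log2, adjusted p = 0.00845; 0.106 without PEN2 replicate 2).

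**Figure D3:**
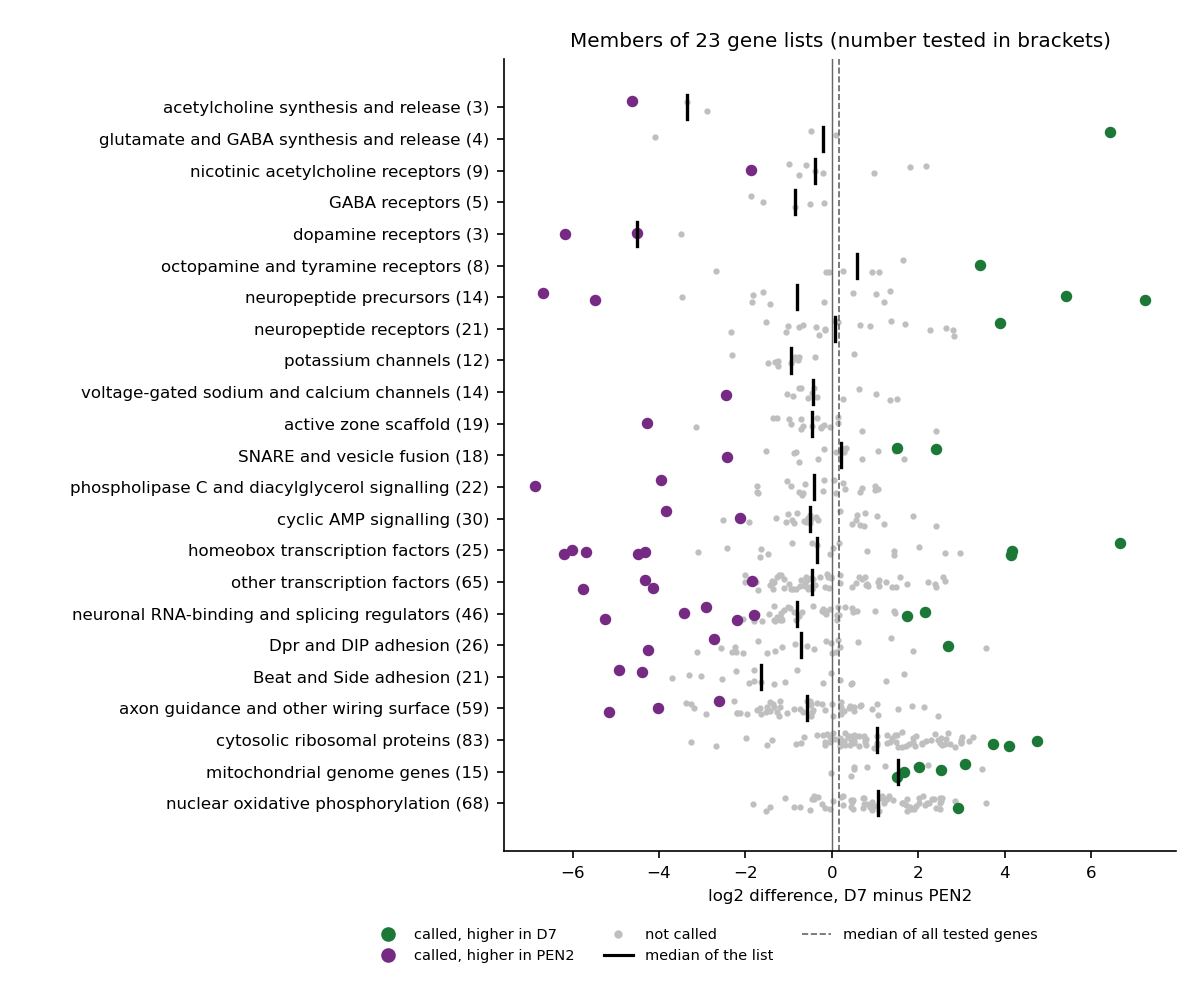
Log2 difference (D7 minus PEN2) of the tested members of 23 gene lists, 1 point a gene, with called genes in colour, a black bar at the median of each list and a dashed line at the median of all tested genes (0.16). The Beat and Side genes lie mostly below 0, with a median of -1.64, and the mitochondrial genome genes mostly above 0, with a median of 1.54.

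Of 15 tested genes of the mitochondrial genome, 5 were called, all higher in D7, and 10 did not pass, against 2.62% of all genes called. In all, 14 had a positive difference, and 12 were higher in all D7 libraries than in both PEN2 libraries, against 14.7% of all tested genes. The median was 1.54 log2, and 1.36 log2 under upper-quartile scaling. The complex I gene mt:ND1 stood at 373.8, 352.5, 809.5 and 480.5 FPKM in D7 and at 110.5 and 49.4 FPKM in PEN2 (2.53 ± 0.39 log2, adjusted p = 0.00651; 0.116 without PEN2 replicate 2). The ATP synthase gene mt:ATPase8 stood at 78.4, 96.7, 90.6 and 63.3 FPKM in D7 and at 8.80 and 6.93 FPKM in PEN2 (3.09 ± 0.46 log2, adjusted p = 0.00624; 0.0524 and 0.0646 without PEN2 replicate 1 or 2). The groups did not overlap for either gene.

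The other called mitochondrial genes were mt:ATPase6, mt:CoI and mt:CoII, at differences of 2.01 ± 0.37, 1.50 ± 0.28 and 1.68 ± 0.35 log2 (adjusted p = 0.0164, 0.0168 and 0.0267). They were called in 4, 2 and 1 of the 6 fits with a library left out, with adjusted p-values of up to 0.13, 0.146 and 0.148, all without PEN2 replicate 2. With all 12 sorted libraries in the fit, none of the 5 passed, at adjusted p = 0.145 for mt:ND1, 0.205 for mt:ATPase8, 0.17 for mt:ATPase6, 0.283 for mt:CoI and 0.312 for mt:CoII. The mitochondrial rRNA genes mt:srRNA and mt:lrRNA were not called, at 0.44 and 0.52 log2. Nuclear genes of oxidative phosphorylation had a median of 1.07 log2, with 54 of 68 positive and 1 called, COX7A, at 95.6, 52.2, 40.2 and 93.4 FPKM in D7 and 5.98 and 8.34 FPKM in PEN2 (2.91 ± 0.50 log2, adjusted p = 0.0121; 0.0516, 0.0548, 0.0902 and 0.062 without D7 SS02238 replicate 1, D7 SS30295 replicate 2, PEN2 replicate 1 and PEN2 replicate 2, and 0.0651 with all 12 sorted libraries). That 1 call among the 68 nuclear genes is a share of 1.47%, against 2.62% of all genes. Mitochondrial transcripts other than rRNA took 1.04% to 1.54% of the FPKM in the D7 libraries and 0.52% and 0.319% in the PEN2 libraries.

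Cytosolic ribosomal protein genes had a median of 1.04 log2, with 68 of 83 positive, against 3532 of all 6461 genes. Of the 83, 3 were called (3.61%), all higher in D7, a share near the 2.62% of all genes. The median was 0.86 log2 under upper-quartile scaling. RpL3 stood at 73.1, 38.3, 35.2 and 54.1 FPKM in D7 and at 0.98 and 0.49 FPKM in PEN2 (4.76 ± 0.55 log2, adjusted p = 0.00113), and was called with each library left out. RpL37-1 stood at 106.1, 41.0, 39.9 and 47.4 FPKM in D7 and at 4.39 and 0.67 FPKM in PEN2 (4.11 ± 0.62 log2, adjusted p = 0.00635; 0.0791 without PEN2 replicate 2). RpS14a is uncertain because RpS14b is a near-identical copy (3.72 ± 0.85 log2, adjusted p = 0.0413), and it was called in none of the fits with a library left out (up to 0.257, without PEN2 replicate 1) or with all 12 sorted libraries (0.0535). Of 24 heat shock protein genes, 1 was called (4.17%), a share near the 2.62% of all genes. This was the chaperone gene Hsc70-3, for the endoplasmic reticulum protein BiP. It stood at 27.2, 34.0, 101.4 and 100.1 FPKM in D7 and at 6.31 and 7.47 FPKM in PEN2 (2.71 ± 0.58 log2, adjusted p = 0.0306). Hsc70-3 was called only without D7 SS02238 replicate 1 of the fits with a library left out (0.129 without D7 SS30295 replicate 2). Without PEN2 replicate 1 or 2 its difference was 2.39 and 2.96 log2.

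Among the largest differences were genes outside the lists. The aquaporin family gene bib stood at 36.8, 38.4, 35.5 and 45.4 FPKM in D7 and at 0.38 and 0.03 FPKM in PEN2 (5.02 ± 0.58 log2, adjusted p = 0.00113). The gene bnb stood at 57.1, 44.1, 111.5 and 143.5 FPKM in D7 and at 0.06 and 0.10 FPKM in PEN2 (6.17 ± 0.56 log2, adjusted p = 0.000275). CG9016 and CG46448 were at 40.8 to 76.9 and 41.9 to 72.4 FPKM in D7 and at 0.09 FPKM or less in PEN2 (5.82 ± 0.57 and 5.54 ± 0.58 log2, adjusted p = 0.000525 and 0.000671). All 4 were called with each library left out. Long noncoding or antisense RNA genes were among the calls in both directions. The strand of counting is not stated, so antisense genes among them are uncertain.

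Of the largest PEN2 differences, CG14989 was the least even between the PEN2 libraries. It stood at 0.08, 0.42, 0.06 and 1.82 FPKM in D7 and at 692.1 and 22.4 FPKM in PEN2 (-6.56 ± 1.12 log2, adjusted p = 0.0121; 0.0906 without PEN2 replicate 1). The whole brain stood at 1563 FPKM. The gene nis was uneven the other way, at 13.7 and 172.1 FPKM in PEN2 and at most 0.58 FPKM in D7 (-5.59 ± 1.10 log2, adjusted p = 0.0217; 0.0541, 0.0537, 0.0548 and 0.0777 without D7 SS02238 replicate 1, D7 SS30295 replicate 1, D7 SS30295 replicate 2 and PEN2 replicate 2). Gad1, CG14989 and the glial sum were all highest in PEN2 replicate 1 of the 6 libraries, and their part in each other was not tested.

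Separately made low-cell libraries of 35 PEN2 cells each, from the same driver line, gave levels that the comparison above did not use. They comprise 14 libraries of PEN2 under 2 sample entries (399694 to 500622 counts) and 8 of central brain RNA of 50 pg each, CB (340527 to 415414 counts), and no D7 library. The 14 are repeat libraries of 2 PEN2 samples and the 8 of 1 central brain sample, so the counts over libraries below describe 3 samples. For 70 of the 96 genes called higher in bulk PEN2 (72.9%), the PEN2 median, in counts scaled to a common library total (CPM), was above the CB median, against 29.2% of all tested genes and 14 of the 73 genes called higher in bulk D7 (19.2%). Every PEN2 library lay above every CB library for 36 of the 96, for none of the 73, and for 116 of all 6461.

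Dh44 stood at 1545 to 3793 CPM in the PEN2 low-cell libraries and at 179.1 to 300.9 CPM in CB. Optix stood at 866.2 to 1546 CPM against 9.63 to 70.7 CPM, and rdgA at 765.9 to 2499 CPM against 214.1 to 384.7 CPM. These 3 genes were above CB in every low-cell PEN2 library. FMRFa, which did not pass in the bulk comparison, stood at 788.2 to 4911 CPM against 69.5 to 127.2 CPM. ChAT, which did not pass either, stood at 1684 to 3069 CPM against 631.4 to 935.5 CPM. On the other side, Proc had counts in 3 of the 14 PEN2 libraries and a median of 0 CPM against 384.3 CPM in CB, and Lmx1a and SerT had a median of 0 CPM.

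Some bulk differences were not seen at the same level there. CG14989 had a median of 2.43 CPM in the low-cell PEN2 libraries against 9282 CPM in CB, and Gad1 a median of 0 CPM against 467.4 CPM. The genes nis and lncRNA:CR44997 had a median of 0 CPM in PEN2 and in CB, while lncRNA:CR44997 stood at 43.9 and 81.9 FPKM in bulk PEN2. RpL3, near 0 in bulk PEN2, stood at 715.4 to 2608 CPM in low-cell PEN2 and 615.3 to 1204 CPM in CB, and RpL37-1 at 617.2 to 2267 CPM against 593.6 to 824.8 CPM. For mt:CoI the low-cell levels were lower in PEN2, at 6111 to 9445 CPM, than in CB, at 19176 to 24403 CPM. Its bulk PEN2 levels were likewise lower than those of WB, at 653.5 and 497.5 FPKM against 5166 and 5742 FPKM. The bulk D7 levels, at 1481 to 2272 FPKM, were below WB as well, so a level below WB is not particular to PEN2. These tables were normalized separately from the bulk table, so levels are compared within each table only.

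**Figure D4:**
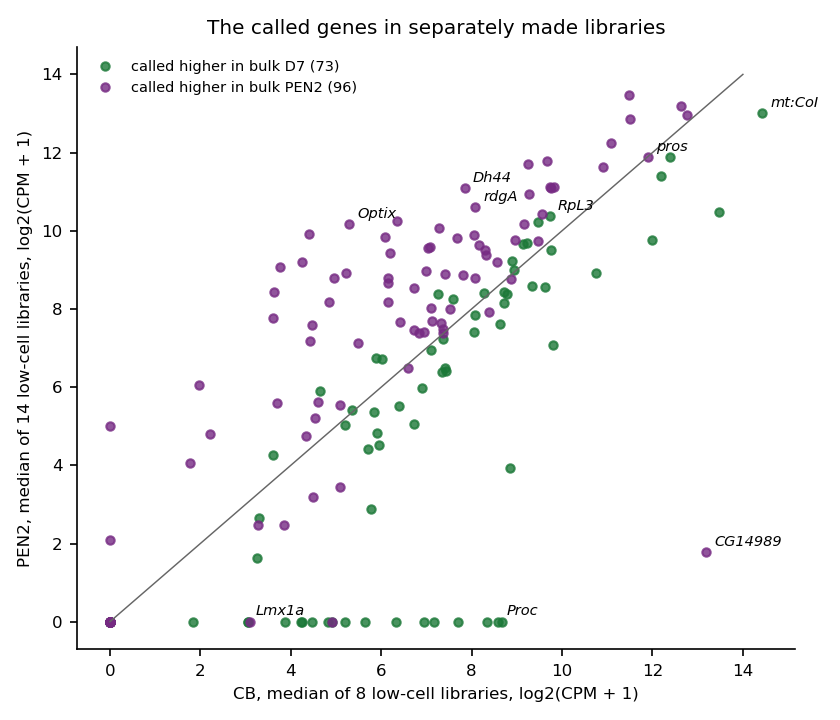
Median log2(CPM + 1) of the genes called in the bulk comparison, in 8 low-cell CB libraries (horizontal axis) and 14 low-cell PEN2 libraries (vertical axis), with the 73 genes higher in bulk D7 in green and the 96 higher in bulk PEN2 in purple. Most purple points lie above the diagonal and most green points on or below it, with CG14989 far below it and RpL3 above it.

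The other sorted bulk types show which of these differences were shared. For 42 of the 96 genes higher in PEN2 (43.8%), the EPG and PEG means both lay on the D7 side of the midpoint between D7 and PEN2, against 36.2% of all tested genes that were higher in PEN2. For 29 of the 96 (30.2%) both lay on the PEN2 side, against 25.5%. For 29 of the 73 genes higher in D7 (39.7%), EPG and PEG both lay on the PEN2 side, against 28.8% of all tested genes that were higher in D7, and for 16 (21.9%) both lay on the D7 side, against 35.1%. These shares are a description, and they were 41.7%, 31.2%, 45.2% and 17.8% in the same order without PEG replicate 1, a library in which glial markers summed to 3647 FPKM.

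Examples of genes low in D7, EPG and PEG were rdgA (at most 4.47 FPKM in EPG and 10.8 FPKM in PEG), Dh44 (at most 2.30 and 2.34 FPKM), run (at most 0.02 and 0.10 FPKM) and CG42458 (at most 0.02 and 0.29 FPKM). By contrast, spab stood at 145.5 to 237.0 FPKM in EPG and 180.0 and 254.7 FPKM in PEG, and Lim1, VAChT, Nlg3 and dpr6 were also above all D7 libraries in each EPG and PEG library. Dop1R1 stood at 45.2 to 130.0 FPKM in EPG, overlapping PEN2, and at 30.3 and 59.8 FPKM in PEG. Lmx1a, SerT and hbn were at 0.11 FPKM or less in every EPG and PEG library. The gene mbl was at 6.18 to 17.9 FPKM in EPG, below both PEN2 libraries, and at 70.1 and 425.3 FPKM in PEG.

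**Figure D5:**
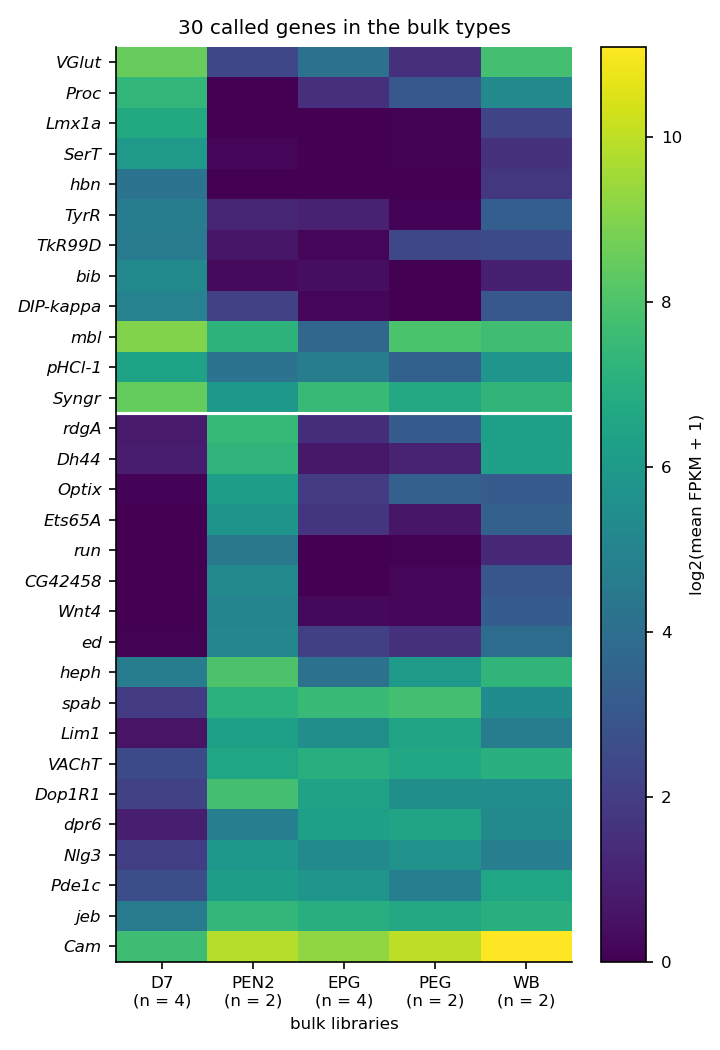
Log2(mean FPKM + 1) of 30 called genes (rows) in D7, PEN2, EPG, PEG and whole brain (WB) bulk libraries (columns), with 12 genes higher in D7 above the white line. Genes such as run and CG42458 are bright in PEN2 and dark in the other sorted types, whereas spab and Lim1 are dark only in D7 among the 4 sorted types.

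Against whole brain, the authors' deposited table gave Lmx1a, bib and SerT as 4.70, 5.04 and 4.78 log2 higher in D7 (FDR 0.00211, 0.00463 and 0.0232). The authors' deposited table gave VGlut as 0.64 log2 higher in D7 (FDR 0.207) and -5.76 log2 in PEN2 (FDR 0.0787). For pros, the authors' deposited table gave -7.49 log2 in D7 (FDR 0.000188) and -1.32 log2 in PEN2 (FDR 0.0787). These tables compare each type with the same whole brain libraries, and no value of them enters the tests above.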

How the data were processed

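RNA was measured in FACS-sorted D7 and PEN2 neurons (4 and 2 bulk libraries). The bulk table deposited by the authors holds FPKM, a unit inferred from the values because the file headers do not name it. The low-cell tables hold counts as deposited by the authors. The authors' deposited comparison tables hold log2 fold changes, given as whole brain over type and turned here, and FDR (adjusted p-values). Per the submitters' processing notes, STARsolo and edgeR were used. The genome build is not given in the sources used here. Driver lines follow the sample characteristics where a title or header differed (2 D7 libraries).

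FPKM were scaled by TMM (edgeR 4.0.16), log2-transformed with a pseudocount of 1 and tested with limma 3.58.1 (R 4.3.3; variance trend on mean level). Genes needed at least 1 FPKM in 2 of the 6 libraries, and p-values were adjusted over the 6461 genes. The pseudocount understates differences of low genes, and a difference from a type listed at 0 depends on it. The code was tested on simulated data. Low-cell counts were scaled to CPM over genes. Members, 41 gene lists and comparisons were chosen with earlier results of these data known. Named genes were the 12 largest called differences per direction (at least 20 FPKM, no overlap), up to 3 called members and 1 other of each list, and the marker, fast transmitter and monoamine lists in full. All other genes given with values, among them FMRFa, AstC, Eip75B, pum, mbl, Rsf1, mt:CoI, mt:CoII, hbn, ct and CG14322, were chosen after their values were seen. Figures used Python 3.11.15 and matplotlib 3.10.9. Alternatives are given in the closing section.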

Additional observations from a re-analysis of the deposited data

Results flagged for a closer look

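In a search over 74 named genes with at least 1 FPKM in a D7 library, 1 of the 4 D7 libraries lay far from the other 3 for 11 genes, by Dixon's criterion at its 95% level. For normally distributed values chance gives about 1 in 20 groups, and the rate for these FPKM values was not tested. Higher in 1 library were ChAT (5.52 FPKM in SS02238 replicate 1, others at most 0.31), Gad1 (5.99 FPKM in SS02238 replicate 2, others at most 0.05), Dh44 (3.33 FPKM in SS02238 replicate 2, others at most 0.03), FMRFa (4.77 FPKM in SS30295 replicate 1, others at most 0.41) and beat-IIa (12.1 FPKM in SS30295 replicate 1, others at most 1.31). The same held for dpr6 (2.99 FPKM in SS30295 replicate 2, others at most 0.32), Nplp1 (38.2 FPKM in SS30295 replicate 2, others at most 18.4), RpL37-1 (106.1 FPKM in SS02238 replicate 1, others at most 47.4) and CG46448 (72.4 FPKM in SS02238 replicate 1, others at most 45.9). Lower in 1 library were Dop2R (0.95 FPKM in SS30295 replicate 1, others at least 1.20) and CG4328 (6.52 FPKM in SS02238 replicate 2, others at least 22.7).

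The transgenes lie outside the gene comparison. Both reporters exceeded the whole brain libraries in every D7 and PEN2 library. The driver parts exceeded them in D7 only, and Gal4-DBD not in D7 SS02238 replicate 2. The reporter nls-tdTomato stood at 1222.2, 922.33, 1473.28 and 1525.49 FPKM in D7 (SS02238 replicates 1 and 2, then SS30295 replicates 1 and 2) and at 295.79 and 193.44 FPKM in PEN2, against 7.06 and 7.13 FPKM in WB. A second reporter sequence, myr-GFP-p10, which the labels of these samples do not name, stood at 426.87, 353.07, 265.88 and 236.9 FPKM in D7 and at 25.59 and 102.79 FPKM in PEN2, against 4.99 and 3.71 FPKM in WB. The driver part Gal4-AD stood at 7.62, 3.05, 2.45 and 2.07 FPKM in D7 and at 0.03 FPKM in both PEN2 libraries, against 0.06 and 0.15 FPKM in WB. Gal4-DBD stood at 21.3, 22.05 and 12.46 FPKM in D7 SS02238 replicate 1 and SS30295 replicates 1 and 2, at 0.00 in SS02238 replicate 2, and at 0.00 and 0.10 FPKM in PEN2, against 4.31 and 3.54 FPKM in WB.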

How the results depend on the processing

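The 169 calls (60 of them in the gene lists, 61 among the genes named by rule) were 41, 18 and 24 without a filter on low values, 31, 17 and 25 against a change of 1 log2, and 0 each with only D7 line SS02238, only D7 line SS30295 or only the libraries of 1 title prefix (778, 950 and 883 genes at an unadjusted p under 0.05). They were 91 and 37 (all, lists) with driver line terms, and 344 and 101 with all 12 sorted libraries in the fit. The list and named counts were 39 and 39 without the mean-variance trend. With 1 library left out, the counts ranged over 16 to 124, 7 to 48 and 10 to 50, where a lone PEN2 library was assumed to vary like the D7 libraries. The cause of these moves was not tested, apart from fewer samples and more genes by construction. A pseudocount of 0.1 or 5 gave 167 and 144 calls, of which 100 and 50 were higher in D7, against 73 of 169. Upper-quartile scaling moved the median of all tested genes from 0.16 to 0.035 log2 (181 calls), and no scaling moved it to 0.257 (159 calls). Of 74 called genes given with values, 11 kept their call without PEN2 replicate 2, 37 without PEN2 replicate 1 and 42 to 58 without 1 D7 library, and none changed direction. AstC, not called, had differences of -2.43, -4.96, -0.08, -0.17 and -1.42 log2 with only D7 line SS30295, only the shared title prefix, and without D7 SS02238 replicate 1, D7 SS02238 replicate 2 and PEN2 replicate 2, and 3.42 log2 without PEN2 replicate 1. Same-numbered replicates shared only a number (correlations of their deviations of -0.022, -0.005 and -0.016), and a replicate block gave 150 calls, 147 of them shared, with 72 higher in D7 and 78 in PEN2, 58 in the lists and 59 among the named genes.

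PEN2 rests on 2 libraries of 1 driver line, and D7 libraries share no title prefix with PEN2 replicate 2, so driver, preparation and cell type cannot be told apart. Read depth is unknown, and the median SE was 0.87 log2. The low-cell libraries included no D7 cells.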
